A study of Sus scrofa with 16 samples.

Results

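In the pituitary of Złotnicka White pigs, ITGBL1, OXNAD1, RNF180, LZIC and PKIA led the genes with higher expression at low feed conversion. They had the 5 smallest p-values in that direction among genes named by the authors' deposited comparison. They are 5 of the 25880 genes of the deposited count table and of the 13621 genes that passed the filter on low counts, and all 5 passed it. Feed conversion is the feed an animal eats for the weight it gains, and the comparison asks which pituitary genes differ between pigs at its low and high ends. Whole pituitaries of 16 untreated female pigs were sequenced, 8 with low feed conversion (LFC) and 8 with high feed conversion (HFC), all labelled as 180 days old. The pigs were unrelated, came from different farms and shared feed and housing at a test station. The test ended at a set body weight, and the paper reports a spread of ages. In its trait table, the HFC pigs of this breed gained weight more slowly, spent more days on test and had more ham fat and less carcass meat. Growth, time on test and fatness therefore cannot be told apart from feed conversion in this comparison. Because the genes were chosen by this comparison in these pigs, their difference between the groups is a description and was not tested. Expression is given as CPM, the depth-scaled unit of counts, here with TMM scaling of the libraries. A mean ± SD is always over the 8 pigs of a group (n = 8), LFC first, and a positive log2 ratio means higher expression in the LFC pigs.

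The 5 genes belong to different families. ITGBL1 encodes a secreted protein built of EGF-like repeats like those in the stalk of integrin beta subunits, without their membrane anchor. OXNAD1 encodes a protein with an NAD-binding oxidoreductase domain. RNF180 is a membrane-anchored RING ubiquitin ligase that marks the transcription factor ZIC2 and the enzyme monoamine oxidase A for degradation. LZIC is a relative of CTNNBIP1, which keeps beta-catenin from binding TCF factors at Wnt target genes. PKIA encodes the alpha inhibitor of protein kinase A, a small protein that occupies the catalytic subunit as a pseudosubstrate and carries it out of the nucleus. In the pituitary, protein kinase A relays the signals of growth hormone-releasing hormone and corticotropin-releasing hormone.

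The libraries held 6258650 to 8402619 counts on genes in the LFC pigs, with a median of 7803047. In the HFC pigs they held 6010629 to 11794256, with a higher median of 9027332. The anterior lobe hormone genes were abundant in every pig, with POMC between 8587 and 83136 CPM, PRL between 15501 and 112503 CPM and GH1 between 23064 and 85944 CPM. GFAP, a glial gene of the posterior lobe, ranged from 1.99 to 1487 CPM and the collagen gene COL1A1 from 23.9 to 186 CPM. In bulk tissue, fewer cells of a type and less RNA per cell cannot be told apart. No gene of the whole table passed an adjusted p of 0.05 with a fold of 1.3 in edgeR's quasi-likelihood test (0%), while DESeq2 called 29 genes. A gene is called nominal here where its unadjusted edgeR p was 0.05 or less. There were 1559 nominal genes (11.4%), 601 with higher expression in the LFC pigs (4.41%) and 958 with higher expression in the HFC pigs (7.03%), so 38.6% of them were on the LFC side, against 54.0% when libraries were scaled by their totals alone. Single pigs moved these numbers. Without HFC replicate 5, the library with the fewest counts, there were 1620 nominal genes on the LFC side and 1894 on the HFC side. The LFC side had 330 without LFC replicate 4, 319 without LFC replicate 6, 389 without HFC replicate 2, 370 without HFC replicate 4 and 382 without HFC replicate 8, and the HFC side had 619 without HFC replicate 4.

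ITGBL1 (ENSSSCG00000009526, Sscrofa11.1, chromosome 11, 70041968 to 70248362) had a lowest value of 12.4 CPM, a median of 17.9 CPM and a highest value of 25.1 CPM in the LFC pigs. In the HFC pigs its lowest value was 8.13 CPM, its median 11.4 CPM and its highest value 15.0 CPM. LFC replicates 4 and 5 were well above the others, and LFC replicates 1 and 6 lay below HFC replicate 5, so the groups overlapped. The means were 18.3 ± 4.51 and 11.4 ± 2.11 CPM, a log2 ratio of 0.67 with a standard error of 0.15, or 1.59-fold. The gene was counted 75 to 209 times per pig. The counting error was 11.5% at the lowest count, and the coefficient of variation between pigs was 24.7% in the LFC and 18.4% in the HFC group.

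OXNAD1 (ENSSSCG00000011197, chromosome 13, 3396069 to 3437076) ranged from 16.3 CPM over a median of 20.3 CPM to 31.9 CPM in the LFC pigs. In the HFC pigs it ranged from 10.8 CPM over a median of 14.3 CPM to 17.1 CPM. LFC replicates 6, 4 and 3 were the highest of all 16 pigs, whereas LFC replicate 8 lay below HFC replicates 1, 2 and 5. The means were 22.3 ± 5.62 and 14.1 ± 2.54 CPM, and the log2 ratio was 0.65 with a standard error of 0.15. The values rest on 87 to 201 counts per pig.

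RNF180 (ENSSSCG00000016941, chromosome 16, 42686965 to 42952053) had 16.3 CPM in its lowest LFC pig, a median of 19.7 CPM and 29.7 CPM in its highest. The lowest HFC pig had 9.14 CPM, the median was 14.2 CPM and the highest pig had 16.4 CPM. The overlap came from a single pair, LFC replicate 2 and HFC replicate 2, and HFC replicates 1, 6 and 7 formed a low end apart from the other HFC pigs. The means were 20.6 ± 4.33 and 13.1 ± 2.97 CPM, with a log2 ratio of 0.65 and a standard error of 0.15, on 82 to 238 counts per pig. In the RefSeq annotation of Sscrofa11.1 a long noncoding RNA gene shares 16506 bases with RNF180, and since the libraries did not keep the strand its reads cannot be told apart there.

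LZIC (ENSSSCG00000033257, chromosome 6, 70262721 to 70268355) had the fewest counts of the 5 genes, 48 to 112 per pig. Its LFC values ran from 9.16 CPM over a median of 10.7 CPM to 15.6 CPM, and its HFC values from 6.47 CPM over a median of 7.69 CPM to 9.30 CPM. LFC replicates 6 and 1 were the highest, and LFC replicate 7 was the single LFC pig below an HFC pig, replicate 8. The means were 11.6 ± 2.21 and 7.92 ± 0.978 CPM, with a log2 ratio of 0.54 and a standard error of 0.13. The coefficient of variation was 19.1% between the LFC and 12.3% between the HFC pigs, and counting alone gave 11.6% at the median count.

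PKIA (ENSSSCG00000006163, chromosome 4, 57872115 to 57897303) was the most heavily counted of the 5 genes, with 390 to 736 counts per pig. In the LFC pigs it had 62.0 CPM at the lowest, 80.6 CPM at the median and 93.1 CPM at the highest. In the HFC pigs it had 48.8 CPM at the lowest, 57.5 CPM at the median and 80.0 CPM at the highest. The other 7 HFC pigs were below every LFC pig, and HFC replicate 5 alone lay in the middle of the LFC group. The means were 79.0 ± 10.5 and 58.6 ± 9.49 CPM, and the log2 ratio, the smallest of the 5 genes, was 0.43 with a standard error of 0.10.

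**Figure D1:**
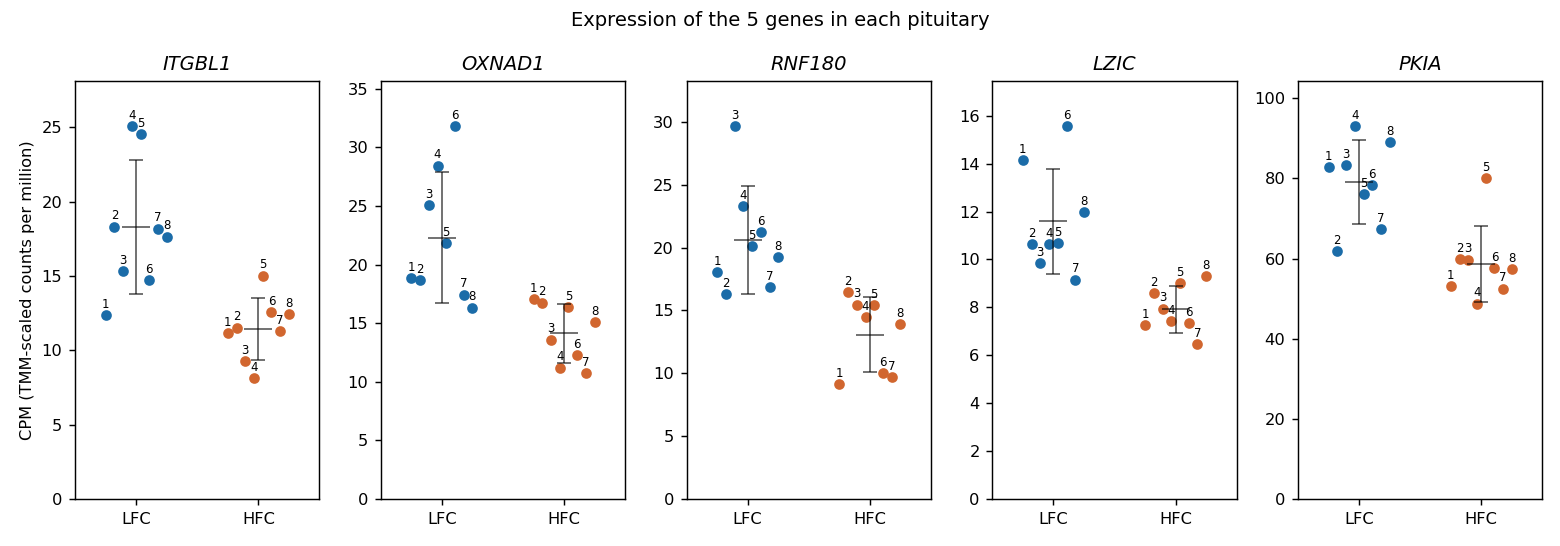
Expression of the 5 genes in CPM in each of the 16 pigs, with 1 panel per gene; points are pigs labelled by replicate number, and the black bars are the mean and SD of 8 pigs. No HFC pig lies above the LFC median in any panel, but the groups overlap at their edges for each gene, and HFC replicate 5 is the lone high HFC pig for PKIA at 80.0 CPM.

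For each of the 5 genes all 8 LFC pigs were above the HFC median and all 8 HFC pigs were below the LFC median. Of the 64 possible pairs of an LFC and an HFC pig, the LFC pig was higher in 63 for RNF180 and for LZIC, in 61 for OXNAD1 and in 60 for ITGBL1 and for PKIA. Over the whole table, 52.1% of genes had a higher fitted level in the LFC pigs, and 0.169% reached at least 60 pairs. Groups without any overlap were found for 0% of genes on the LFC side and 0.00734% on the HFC side. These counts come from the comparison that chose the genes. Just outside the choice stood HACL1, a peroxisomal lyase of fatty acid alpha-oxidation, at 24.1 ± 4.55 and 16.9 ± 2.50 CPM. Its log2 ratio was 0.50, and that of PKIA, the last gene inside, was 0.43.

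The same pigs did not lead for every gene. LFC replicates 3, 4, 5 and 6 were among the upper 8 of the 16 pigs for all 5 genes. LFC replicate 4 had the highest ITGBL1 and PKIA, LFC replicate 6 the highest OXNAD1 and LZIC, and LFC replicate 3 the highest RNF180. LFC replicate 1 had the lowest ITGBL1 of its group but was next to the top for LZIC. HFC replicate 7 was among the 4 lowest pigs for each gene, whereas HFC replicate 5 was in the upper 8 for ITGBL1 and PKIA.

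Whether the genes varied together between pigs of the same group was not used in their choice. After the group mean of each gene was taken off, 8 of the 10 pairs had a positive Pearson's r over the 16 pigs, from -0.22 for ITGBL1 and LZIC to 0.51 for RNF180 and PKIA. RNF180 and PKIA had a Spearman's rho of 0.56, with permutation p-values of 0.0475 for r and 0.0221 for rho, which were 0.277 and 0.221 after Benjamini-Hochberg adjustment over the 10 pairs. Their r was 0.52 when the 2 pigs most distant from the RNF180 median were left out. When libraries were scaled by their totals alone, 6 of the 10 pairs were positive, r ran from -0.43 to 0.18, and that of RNF180 and PKIA was 0.13. No pair passed an adjusted p of 0.05. Of all other genes tested, 7.77% had an r with RNF180 at least as high as that of PKIA.

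The genes most like each of the 5 within the groups were named by the same centred r over 16 pigs, among genes with a symbol, and are given without a test. OXNAD1 was closest to the phosphatase PRUNE1 (r = 0.89), the CDC42 effector CDC42SE2 (0.87) and its neighbour DPH3 (0.87). PKIA was closest to SKP1, a core subunit of SCF ubiquitin ligases (0.96), the oxoglutarate dehydrogenase subunit KGD4 (0.96) and YPEL5, a subunit of the CTLH ubiquitin ligase (0.95). RNF180 was closest to the translation repressor EIF4EBP1 (0.83), CCDC28A (0.82) and the helicase DDX59 (0.82). LZIC was closest to the initiation factor EIF1B (0.83), GDAP2 (0.81) and the tropomyosin TPM3 (0.78). For ITGBL1 the closest were SRP9 of the signal recognition particle (0.75), the secreted Wnt antagonist SFRP4 (0.74) and ABHD3 (0.74).

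How many genes varied like a given gene differed among the 5. An r of at least 0.7 was found for 1378 of the 13620 other genes (10.1%) in the case of PKIA, for 193 with OXNAD1, 99 with RNF180, 35 with LZIC and 13 with ITGBL1. Counting noise lowers r, and the counting error at the median count was 4.28% for PKIA, 9.11% for ITGBL1 and 11.6% for LZIC. Its part in these numbers was not tested. Of the 15 genes named by likeness, DPH3, SFRP4, CCDC28A and CDC42SE2 were nominal on the LFC side (26.7%, against 4.41% of all genes) and none on the HFC side. The 15 were picked as followers of genes chosen for the LFC side in these pigs, and DPH3 overlaps OXNAD1. The share is therefore a description and no test. SFRP4 had 37.6 ± 17.4 and 22.3 ± 13.5 CPM, a log2 ratio of 0.76 with a standard error of 0.31 (edgeR, adjusted p = 0.417). SKP1 and PRUNE1 had log2 ratios of 0.22 and 0.07.

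OXNAD1 overlaps DPH3, which encodes a protein of diphthamide synthesis on elongation factor eEF2. In the deposited coordinates both genes cover the 177 bases from 3396069 to 3396245 of chromosome 13, while 29 bases separate them in RefSeq on the same assembly. DPH3 had 44.1 CPM at the lowest, 75.5 CPM at the median and 131 CPM at the highest in the LFC pigs, against 34.5, 47.0 and 71.6 CPM in the HFC pigs. LFC replicates 4 and 6 had by far the most DPH3, 131 and 130 CPM, and were also the highest for OXNAD1. The log2 ratio of DPH3 was 0.72 with a standard error of 0.22 (edgeR, adjusted p = 0.410). Without strand, reads on the shared bases cannot be assigned to 1 of the genes, and their number was not determined.

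**Figure D2:**
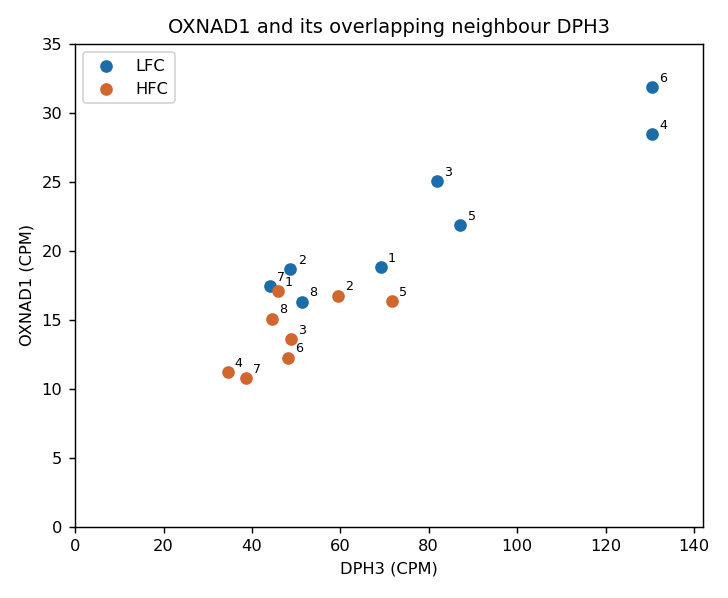
OXNAD1 against DPH3, both in CPM, in each of the 16 pigs labelled by replicate number, with both axes starting at 0. Both genes are highest in LFC replicates 4 and 6, and HFC replicates 4 and 7 are the lowest pigs for both.

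The higher expression around OXNAD1 did not extend over the whole stretch of chromosome 13. HACL1 lies on the same chromosome at 2786676 to 2840955. Between HACL1 and DPH3, the biotin-recycling gene BTD, ANKRD28 and the glycosyltransferase gene GALNT15 had log2 ratios of -0.12, -0.17 and 0.19, and none was nominal (edgeR, adjusted p = 0.573, 0.460 and 0.706). On the other side of OXNAD1, the lipid raft gene RFTN1 was nominal in the opposite direction, at 15.1 ± 3.17 and 21.3 ± 3.57 CPM, with a log2 ratio of -0.49 (edgeR, adjusted p = 0.385). This stretch was chosen after the values of HACL1 and OXNAD1 were seen.

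Among the genes of the deposited comparison, the nearest on each side of the other 4 were not nominal. Some lay far off, with gaps of 694745 bases to TPP2, 1164295 to IPO11, 393530 to CWC27 and 1355033 to PEX2. Any closer gene missing from that comparison was not examined. LZIC lies between its relative CTNNBIP1, at 21.2 ± 3.69 and 20.3 ± 3.77 CPM, and the NAD synthesis gene NMNAT1, at 8.92 ± 2.41 and 8.01 ± 2.20 CPM. Their log2 ratios were 0.06 and 0.15, with standard errors of 0.13 and 0.18. NMNAT1 shares 415 bases with LZIC in RefSeq and none in the deposited coordinates. The sodium leak channel gene NALCN and the peptidase gene TPP2 around ITGBL1 had log2 ratios of -0.23 and -0.21. IPO11 and CWC27 around RNF180 had 0.18 and -0.06, and ZC2HC1A and PEX2 around PKIA had 0.08 and 0.11. The smallest adjusted p of these 8 genes was 0.472 for NALCN (edgeR). ZC2HC1A followed PKIA within the groups with an r of 0.82, although its log2 ratio between them was 0.08 with a standard error of 0.17.

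The relatives and pathway partners of the 5 genes were taken from 5 lists with 69 genes, of which 65 were tested. No partner was nominal on the LFC side, against 4.41% of all genes, and 6 were nominal on the HFC side (9.23%), against 7.03%. No partner passed an adjusted p of 0.05, the smallest being 0.413 (edgeR). The median log2 ratio of the 65 genes was -0.03, and that of all genes tested 0.01. Both counts changed when single pigs were left out, as did the shares of all genes. None of the 6 was nominal with 1 surrogate variable, where 2.95% of all genes were nominal on the HFC side. This variable was lowest in HFC replicate 5, LFC replicate 6 and LFC replicate 4 (-0.50, -0.48 and -0.35). On the HFC side the count was 11 without HFC replicate 5, where 13.8% of all genes were nominal on this side, 2 without LFC replicate 4, LFC replicate 5 or HFC replicate 4, and 3 without LFC replicates 1 or 6 or HFC replicates 1, 3 or 7. On the LFC side it was 4 without HFC replicate 5 (11.8% of all genes), 3 without LFC replicates 2 or 7 or HFC replicate 6, and 1 without LFC replicates 1, 5 or 8.

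PKIA has the paralogs PKIB and PKIG, which inhibit the same kinase. PKIB had 153 ± 51.6 and 111 ± 41.5 CPM, a log2 ratio of 0.46 with a standard error of 0.22, and was not nominal (edgeR, adjusted p = 0.433). PKIG had a log2 ratio of 0.17 with a standard error of 0.12. The catalytic subunit genes PRKACA and PRKACB, which encode the target of these inhibitors, had log2 ratios of -0.24 and 0.21, with standard errors of 0.12 and 0.14. Among the regulatory subunits, which hold the kinase inactive until cAMP binds, PRKAR1B had 0.32, and PRKAR1A, PRKAR2A and PRKAR2B lay between -0.15 and 0.01. Of the 24 genes of the kinase A list, 14 had a positive and 10 a negative log2 ratio, with a median of 0.01. Its nominal gene was ADCY6, an adenylate cyclase, at 35.9 ± 5.27 and 42.3 ± 6.51 CPM (edgeR, adjusted p = 0.432). That is 4.17% of the list on the HFC side, against 7.03% of all genes. With each pig left out, 0 to 3 genes of the list were nominal on either side. Without HFC replicate 5 there were 3 on both sides. In that run 11.8% of all genes were nominal on the LFC side and 13.8% on the HFC side.

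The beta-catenin list was made for LZIC through its relative CTNNBIP1, and a part of LZIC in this pathway was not tested. Of its 13 tested genes, 11 had negative log2 ratios, against 47.9% of all genes, and the median was -0.19. The coactivator gene BCL9L had 23.2 ± 6.16 and 32.3 ± 8.47 CPM, with a log2 ratio of -0.48 (edgeR, adjusted p = 0.413), and stayed nominal with each pig left out, but not with 1 surrogate variable in the model, where its log2 ratio was -0.18. BCL9 and APC, the scaffold that takes beta-catenin to its destruction, were the other nominal genes, with log2 ratios of -0.32 and -0.40, which were -0.17 and -0.19 and no longer nominal with the surrogate variable. With that variable the share of all genes nominal on the HFC side fell from 7.03% to 2.95%. The list had 3 nominal genes with all pigs (23.1%, against 7.03% of all genes on the HFC side), 6 without HFC replicate 5, where 13.8% of all genes were nominal on that side, and 1 without LFC replicate 4 or HFC replicate 1. CTNNB1, the beta-catenin gene, had a log2 ratio of -0.11 with a standard error of 0.11.

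MAOA, which encodes the monoamine oxidase that RNF180 marks for degradation, had 139 ± 11.7 and 141 ± 27.4 CPM, a log2 ratio of -0.01 with a standard error of 0.11. Its paralog MAOB had -0.07 with a standard error of 0.11. Protein was not measured, so degradation of the enzyme cannot be read from these RNA levels. ZIC2 was below the filter, at a mean of 0.706 and 0.618 CPM. Of the membrane-anchored RING ligases, ZNRF3, which removes Wnt receptors, and RNF150 were nominal on the HFC side, with log2 ratios of -0.29 and -0.47 (edgeR, adjusted p = 0.426 and 0.432). These 2 were 16.7% of the 12 tested genes of this list, against 7.03% of all genes. Neither was nominal without LFC replicate 1, LFC replicate 5 or HFC replicate 4. RNF13 had the highest log2 ratio of the list, 0.40 with a standard error of 0.20.

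The 8 integrin beta genes, whose stalk ITGBL1 resembles, had log2 ratios from -0.35 to 0.06, 6 of them negative. ITGB5 had the smallest p of the list, with a log2 ratio of -0.10 (edgeR, adjusted p = 0.607). Of the 10 flavin reductase genes related to OXNAD1, 8 were tested, with log2 ratios from -0.16 for POR, the cytochrome P450 reductase, to 0.15 for CYB5RL. MTRR, the methionine synthase reductase, had the smallest p among them (log2 ratio 0.12, edgeR, adjusted p = 0.503).

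**Figure D3:**
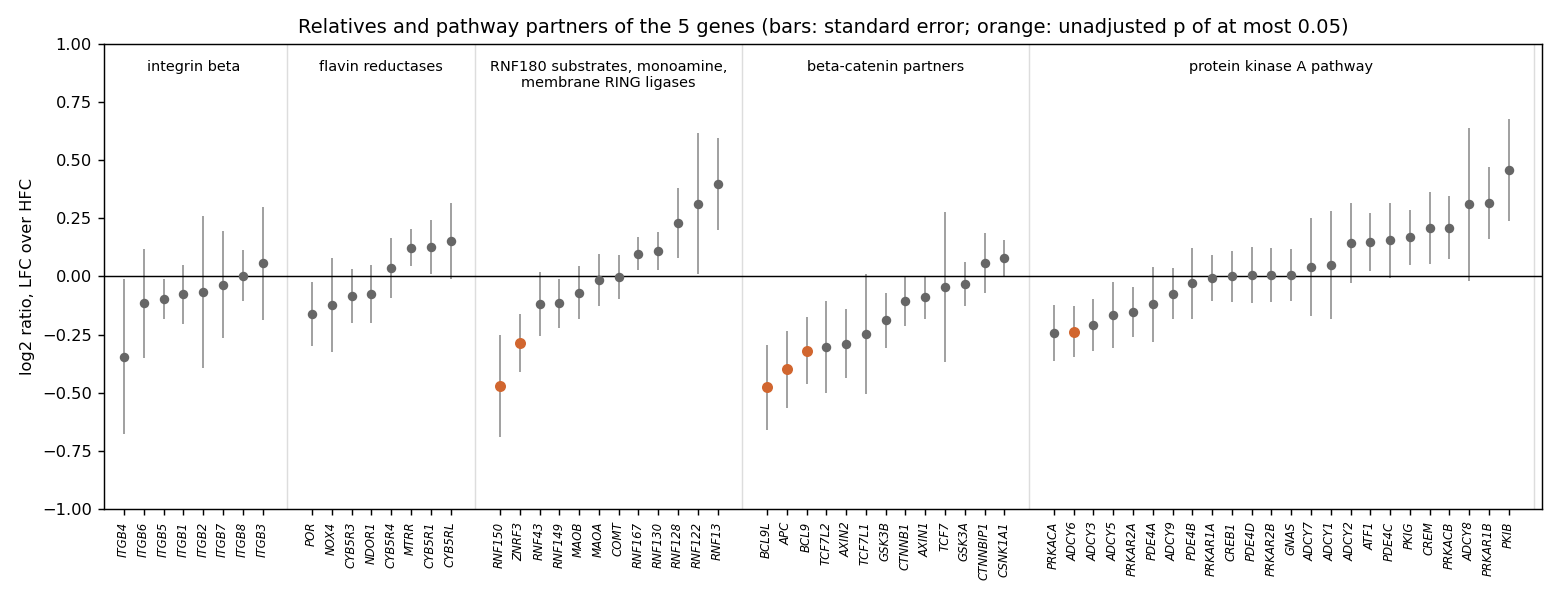
The log2 ratio of LFC over HFC for the 65 tested relatives and pathway partners of the 5 genes, with 1 point per gene, grouped by list; bars are standard errors and orange points have an unadjusted p of 0.05 or less. All 6 orange points lie below 0, on the HFC side, and 11 of the 13 points of the beta-catenin list are below 0.

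Markers of the cell types a whole pituitary can hold were compared between the groups. Of the 47 markers tested, 4 were nominal on the LFC side, where 4.41% of all genes were. Another 4 were nominal on the HFC side, where 7.03% of all genes were. None passed adjustment (edgeR, smallest adjusted p = 0.372). The lactotroph markers PRL and DRD2, 2 of 2 tested, were both nominal on the HFC side and summed to 15602 to 56907 CPM in the LFC and 40078 to 112740 CPM in the HFC pigs. The corticotroph list (4 of 4) summed to 15683 to 83493 CPM and 8751 to 25937 CPM, almost all of it POMC. POMC and TBX19, a transcription factor of POMC cells, were nominal on the LFC side with log2 ratios of 1.23 and 0.53, whereas the receptor genes CRHR1 and AVPR1B had 0.16 and -0.20 and were not. The fibroblast list (7 of 7) summed to 255 to 506 CPM and 305 to 928 CPM, and its nominal gene, the collagen gene COL1A2, had 104 ± 30.5 and 193 ± 45.4 CPM, a log2 ratio of -0.89 and the smallest p of all markers. The endothelial list (6 of 6) summed to 233 to 367 CPM and 200 to 466 CPM, with the cadherin gene CDH5 nominal at -0.42. In the melanotroph list (2 of 2) PCSK2 was nominal at 1.29, with sums of 34.1 to 633 CPM and 19.8 to 246 CPM. In the red blood cell list (3 of 3) ALAS2 was nominal at 0.93, with sums of 278 to 1432 CPM and 63.4 to 1050 CPM. The posterior lobe glia list (5 of 5) had no nominal gene, with overlapping sums of 126 to 5812 CPM and 108 to 3172 CPM. Its gene RAX had no count in 1 pig, and the other tested markers had counts in every pig. The part of these cell types in the differences of the 5 genes was not tested.

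Within the groups, none of the 65 relations of the 5 genes with the 13 marker lists passed adjustment, where the smallest adjusted p of r was 0.265. By r the strongest was that of RNF180 with the lactotroph list (r = 0.71, rho = 0.67, permutation p = 0.00408 and 0.00726, adjusted p = 0.265 and 0.163), and r was 0.60 when the 2 pigs most distant from the RNF180 median were left out. It was 0.74 in the LFC and 0.69 in the HFC pigs. By rho, RNF180 with the folliculostellate and stem cell list (rho = -0.69, r = -0.64, permutation p = 0.0053 and 0.0119, adjusted 0.163 and 0.288) and with the gonadotroph list (rho = 0.69, r = 0.63, permutation p = 0.00754 and 0.0139, adjusted 0.163 and 0.288) were stronger, with r of -0.75 and 0.70 when the same 2 pigs were left out. In both lists only 2 of 4 genes were tested, SOX9 and ALDH1A1 in the first, NR5A1 and FSHB in the second. PKIA also had a permutation p of r of 0.05 or less with the red blood cell (r = 0.58), gonadotroph (0.57), thyrotroph (0.52) and folliculostellate (-0.53) lists. So did OXNAD1 with the gonadotroph list (0.56) and LZIC with the folliculostellate list (-0.55). Between the groups, the lactotroph marker and RNF180 had ratios of opposite sign, with PRL at a log2 ratio of -1.27 and RNF180 at 0.65.

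Of the 20 relations of the 5 genes with measures of the libraries, 5 had a permutation p of r of 0.05 or less within the groups, for PKIA, OXNAD1 and RNF180, and none passed adjustment. The slope of expression on the span of genes in the genome was taken for each pig from 10890 genes, as a measure added after the data were seen, and a low slope means relatively more counts on genes of short span. It ran from -0.0826 to 0.0350 in the LFC and from -0.0643 to 0.0640 in the HFC pigs, with LFC replicates 4 and 6 and HFC replicate 5 apart at the low end. PKIA had an r of -0.71 with it (rho = -0.56, permutation p = 0.00458 and 0.0345, adjusted over 20 relations 0.0692 and 0.201). This r was -0.77 when the 2 pigs most distant from the PKIA median were left out and -0.55 over the 13 pigs other than those 3. OXNAD1 had an r of -0.62 with the slope (rho = -0.53, permutation p = 0.0160 and 0.0503, adjusted 0.107 and 0.201), and r was -0.30 without its 2 most distant pigs and -0.13 over the 13 pigs, so it rested on those pigs. With the share of counts in the 10 top genes OXNAD1 had an r of 0.65 (rho = 0.64, permutation p = 0.00692 and 0.00979, adjusted 0.0692 and 0.114), and 0.59 without its 2 most distant pigs. RNF180 had an r of 0.61 with the same share (rho = 0.66, permutation p = 0.0218 and 0.0114, adjusted 0.109 and 0.114), and 0.68 without its 2 most distant pigs. The fifth relation was that of OXNAD1 with the log2 total of counts (r = -0.47, rho = -0.50, permutation p = 0.0441 and 0.0431, adjusted 0.176 and 0.201), with r of -0.35 without the 2 pigs. The part of these measures in the differences between the groups was not tested.

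**Figure D4:**
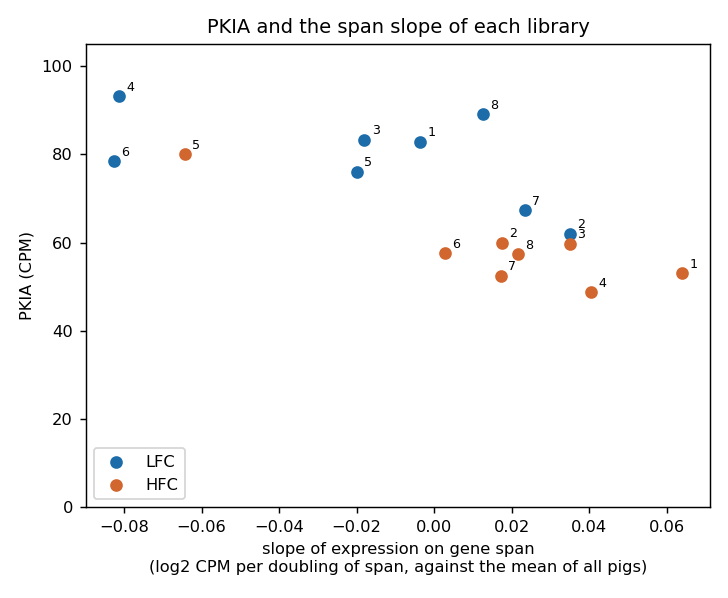
PKIA in CPM against the slope of expression on gene span (log2 CPM per doubling of the span, against the mean of all pigs) in each of the 16 pigs, labelled by replicate number. LFC replicates 4 and 6 and HFC replicate 5 have the lowest slopes with PKIA between 78.4 and 93.1 CPM, and the 8 pigs with the lowest PKIA have slopes above 0.

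The direction of the 5 differences was set by the choice of the genes, and their size was examined with each pig left out. The log2 ratio of ITGBL1 was then between 0.59 and 0.74, that of OXNAD1 between 0.55 and 0.70, that of RNF180 between 0.54 and 0.69, that of LZIC between 0.45 and 0.58 and that of PKIA between 0.38 and 0.48. PKIA was lowest without LFC replicate 4 and highest without HFC replicate 5. With 1 surrogate variable in the model, the ratios were 0.61, 0.47, 0.55, 0.45 and 0.33 in the same order, and that of OXNAD1 was lower than in the main model by more than its standard error.

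**Figure D5:**
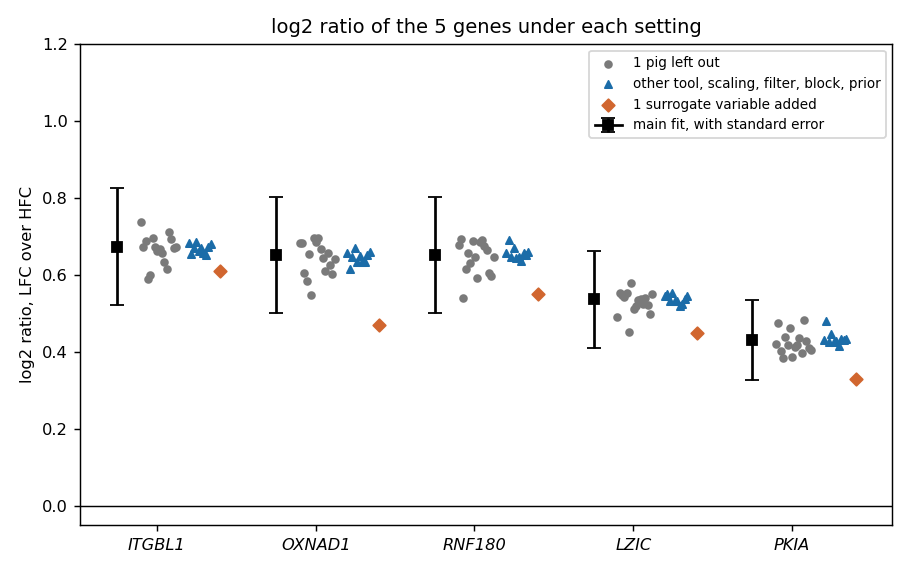
The log2 ratio of LFC over HFC for the 5 genes in the main model (black squares, with the standard error), with each of the 16 pigs left out (grey), under other tools, scalings, filters, a replicate block and a prior count (triangles), and with 1 surrogate variable (diamonds). The diamond is the lowest value for PKIA at 0.33, for LZIC at 0.45 and for OXNAD1 at 0.47.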

How the data were processed

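TruSeq RNA v2 libraries of whole pituitaries, made without strand information, were sequenced as single reads. After trimming, the authors mapped reads to Sscrofa11.1 (Ensembl genes; STAR and RSEM are named in their notes) and deposited whole-number counts per gene and pig, not normalized. Their deposited comparison of the groups (fold changes and p-values) was used for symbols, coordinates and numbers of transcripts alone. Groups came from the low_FCR and high_FCR labels, which stand under a field named shear force. Nothing links replicates to litters or days. Of the 13621 genes tested, 9548 were named by the deposited comparison, 2805 by gene ID and 323 by position in RefSeq, and 945 had no symbol. Exonic lengths were not used here, so levels were not compared between genes.

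The main test was edgeR 4.0.16 in R 4.3.3 (TMM, filterByExpr, quasi-likelihood F test, prior count 2, Benjamini-Hochberg adjustment over all genes tested). Alternatives were DESeq2 1.42.0, limma 3.58.1 voom with quality weights, other scalings (RLE, upper quartile, totals), other filters (none, or 10 counts in each pig), blocking on replicate number, 1 surrogate variable (sva 3.50.0), robust dispersion, a prior count of 0.5 and leaving out each pig. Correlations used log2(CPM + 1) centred on group means with 100000 two-sided permutations within groups (Python 3.11.15 with numpy 2.4.6, pandas 2.3.3 and scipy 1.17.1). In simulated counts of this comparison over 13621 genes, edgeR recovered 82 of 100 genes changed 2-fold and 34 of 100 changed 1.5-fold, with 4 false calls. The common biological coefficient of variation was 0.249. Libraries within a group differed beyond sampling noise (chi-square per degree of freedom 11.4 to 85.9 over 56 pairs). Counting errors cover counting only.

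The 5 genes and all lists were chosen with earlier results of these data known. Genes were named by rule: the 5, the gene next in order, the smallest p of each partner list, the 3 most alike and the nearest neighbours of each, and POMC, PRL, GH1, GFAP and COL1A1. BTD, ANKRD28, the other markers and the other partners were named after their values were seen.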

Additional observations from a re-analysis of the deposited data

Results flagged for a closer look

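PKIA in HFC replicate 5 lay far from the other HFC pigs, at 80.0 CPM against 59.9 CPM in the next pig, a gap of 0.642 of the range of the group. It was 1 such value among 10 groups of 8 pigs examined, and chance gives about 1 in 20 groups. HFC replicate 5 also had the fewest counts, 6010629. Without it the log2 ratio of PKIA was 0.48 instead of 0.43.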

How the results depend on the processing

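Of the 135 log2 ratios of the 5 genes under the alternatives, 1 moved by more than its standard error, that of OXNAD1 with 1 surrogate variable (0.47 against 0.65, standard error 0.15). The genes were chosen by this comparison and many settings leave out only 1 of 16 pigs, so this count does not test the differences. DESeq2 with default settings called 29 genes in the whole table instead of 0, and each other alternative run called 0. Genes with an unadjusted p of 0.05 or less on the LFC side numbered 601, but 1227 with limma voom, 302 with 1 surrogate variable and 319 to 1620 with each pig left out. On the HFC side they numbered 958, but 402 with the surrogate variable and 619 to 1894 with each pig left out. Partner genes on the LFC side numbered 0, but 1 with DESeq2, no filter or the replicate block, 5 with voom, 2 with upper-quartile scaling, total library size or the surrogate variable, and 0 to 4 with each pig left out. Partner genes on the HFC side numbered 6, but 2 with total library size, 0 with the surrogate variable and 2 to 11 with each pig left out. With total library size the within-group r of OXNAD1 and PKIA was -0.00282 and that of RNF180 and LZIC -0.10, against 0.42 and 0.27. The causes were not tested. Same-numbered pigs share only a number: the correlations of their deviations ran from -0.34 to 0.37, with 3 of 8 over 0.1, and no LFC pig was closest to its own number. With the replicate block, 497 genes on the LFC side and 907 on the HFC side had an unadjusted p of 0.05 or less, and the log2 ratios of the 5 genes were 0.65, 0.63, 0.66, 0.52 and 0.43. LZIC, with 48 to 112 counts per pig, is the gene whose precision depth limits most.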
